A study of Danio rerio with 12 samples.

Results

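Desmin forms the intermediate filaments that tie the contractile apparatus of a muscle fibre to its membrane and organelles. Zebrafish carry a pair of desmin genes, desma and desmb. Described here are 7 transcripts whose read counts were higher in muscle of fish lacking both desmins than in wild-type (WT) muscle: tmtops2a, kcnj13, camta2, si:dkey-251i10.2, tcimb, crym and ackr3b. They are 7 of the 32520 genes counted in each library. They were picked from the genotype difference itself, by their reads in the 4 groups, so that difference is described below without a test. Tests are kept for other measures, and the tissue comparison within WT, whose reads entered the choice, is a description too.

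The series compared extraocular muscle (EOM), which moves the eye and is spared in many muscular dystrophies, with trunk muscle. All fish were 5 months old and of the AB strain, and both tissues were taken from WT fish and from desma-/-;desmb-/- double mutants, the WT fish coming from the line in which the mutant had been made. Each of the 4 groups, WT EOM, mutant EOM, WT trunk and mutant trunk, had 3 libraries, 12 in all. The series' design text mentions knocking desmin down and several time points. The labels describe double mutants of 1 age and were used. Whether the 3 libraries of a group came from separate fish or from pools is not stated. The p-values therefore rest on the spread between these libraries, pooled in part over all genes, and that spread may be in part technical.

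The products of these genes belong to different systems. tmtops2a encodes a teleost multiple tissue opsin, a light-sensitive G-protein coupled receptor. ackr3b encodes an atypical chemokine receptor that takes up the chemokine Cxcl12 without G-protein signalling and so shapes the path of migrating cells in the zebrafish embryo. kcnj13 encodes the inward rectifier potassium channel Kir7.1, known from the pigment epithelium of the mammalian retina and from zebrafish stripe mutants. camta2 encodes a calmodulin-binding transcription activator, which in the mouse heart promotes growth and is held back by class IIa histone deacetylases. tcimb is a zebrafish counterpart of TCIM, whose human protein binds Chibby and raises beta-catenin signalling. crym encodes mu-crystallin, which binds thyroid hormone in the cytosol and is also a ketimine reductase. For si:dkey-251i10.2 no role is given here.

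Each library held 64544544 to 91115096 sense reads assigned to genes. desma, the abundant desmin gene, had 56357 to 105488 reads per library in WT EOM against 1517 to 2531 in mutant EOM, and 42503 to 51107 in WT trunk against 1547 to 3648 in mutant trunk, so genotype label and desma reads went together in all 12 libraries. desmb had 0 to 12 reads in every library, too few to check its deletion. The listed fibre markers were present in all groups, summing in EOM to 39800 to 90100 CPM (normalised reads, scaled to a common library total with the TMM factors given next) and in trunk to 99500 to 118000 CPM in WT and 118000 to 232000 CPM in the mutant, with 0 of 23 genes at 0 in any group. Those scaling factors (TMM, trimmed mean of M-values) ranged from 0.555 in mutant trunk library 2 to 1.804 in mutant EOM library 3. A read total per gene from whole muscle cannot tell fewer cells of a type from less RNA per cell.

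The opsin and the chemokine receptor lie on the chromosome of desmb and are given first. In EOM, tmtops2a had 22, 27 and 31 reads in the WT libraries and 732, 445 and 379 in the mutant libraries. In trunk muscle it had 23, 11 and 32 WT reads and 163, 136 and 118 mutant reads. Reads were few in WT muscle of both tissues and higher in each mutant library, with no overlap in either tissue. On the CPM scale the WT libraries stood between 0.149 and 0.368 in both tissues, mutant trunk between 1.53 and 3.23, and mutant EOM between 2.73 and 10.8. Its log2 fold change, mutant over WT, was 4.67 (SE 0.57) in EOM and 3.21 (SE 0.51) in trunk. Levels ran, by group mean, from WT EOM and WT trunk, which lay within each other's spread, through mutant trunk to mutant EOM. The CPM ranges of the mutant groups overlapped. Scaled by library totals alone they did not, at 1.41 to 1.79 in mutant trunk and 4.92 to 9.56 in mutant EOM.

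ackr3b was already read in WT muscle, with 826, 1304 and 1012 reads in EOM and 234, 370 and 505 in trunk. Mutant EOM had 4027, 2403 and 4047 reads and mutant trunk had 584, 575 and 796. Every mutant library exceeded every WT library of its tissue, and every EOM library of a genotype exceeded the trunk libraries of the same genotype in CPM. Those CPM values were 10.5, 11.3 and 9.14 in WT EOM, 59.3, 37.7 and 29.1 in mutant EOM, 2.95, 5.01 and 5.81 in WT trunk, and 10.0, 13.7 and 10.3 in mutant trunk. The order by mean was thus mutant EOM, mutant trunk, WT EOM and WT trunk, and the middle groups of this order overlapped. Mutants exceeded WT by 2.02 (SE 0.45) on the log2 scale in EOM and by 1.31 (SE 0.31) in trunk, and the trunk value was 0.80 when libraries were scaled by their totals alone. The paralog ackr3a stayed between 0 and 12 reads in each of the 12 libraries, with mutant and WT libraries overlapping in both tissues.

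Among the channel and the transcription factor, kcnj13 had the fewest reads. It had 4, 5 and 15 reads in WT EOM, or 0.0507, 0.0435 and 0.136 CPM, and 1.74, 1.65 and 3.95 CPM in mutant EOM. In trunk it had 29, 5 and 2 reads in WT and 100, 18 and 128 in the mutant. EOM was separated without overlap, whereas in the raw reads of trunk mutant library 2 (18 reads) lay below WT library 1 (29 reads). That trunk overlap disappeared in CPM, where the same libraries stood at 0.428 and 0.366, because TMM scales mutant trunk library 2 up. The exact 95% Poisson intervals were 19.4 to 41.6 reads for WT trunk library 1 and 0.242 to 7.22 for WT trunk library 3, counting error only, so the 3 WT trunk libraries differed among themselves by more than counting error. The log2 fold change of kcnj13 was 4.97 (SE 0.68) in EOM and 3.04 (SE 1.00) in trunk, and the latter became 4.77 without WT trunk library 1.

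camta2 had 8, 31 and 28 reads in WT EOM and 217, 164 and 289 in mutant EOM. WT trunk held 50, 59 and 54 reads and mutant trunk 329, 143 and 227. All mutant libraries were above all WT libraries of the same tissue, and the WT trunk libraries, at 0.622 to 0.798 CPM, were above the WT EOM libraries, at 0.101 to 0.270 CPM. The mutant ranges overlapped, with 2.08 to 3.19 CPM in EOM and 2.94 to 5.65 CPM in trunk. These values gave a log2 fold change of 3.62 (SE 0.58) in EOM and 2.54 (SE 0.36) in trunk.

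crym, the thyroid hormone binding protein, stood at similar levels in both tissues of a genotype. In EOM it had 1.53, 0.600 and 0.985 CPM in WT and 8.86, 5.15 and 4.21 CPM in the mutant. In trunk it had 68, 36 and 71 reads in WT and 524, 246 and 439 in the mutant, or 0.487 to 0.857 CPM against 5.68 to 9.01 CPM. No library crossed between genotypes, whereas the tissues overlapped within WT and within the mutant. Its log2 fold change was 2.54 (SE 0.50) in EOM and 3.24 (SE 0.36) in trunk.

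tcimb varied widely between the WT EOM libraries. WT EOM held 337, 286 and 53 reads and mutant EOM 665, 689 and 628. WT trunk held 69, 84 and 92 reads and mutant trunk 764, 558 and 514. In CPM the mutant EOM libraries (9.79, 10.8 and 4.52) only just cleared the highest WT EOM library (4.27, against 2.49 and 0.479 in the other WT EOM libraries). In trunk the gap was wide, from 0.870, 1.14 and 1.06 CPM in WT to 13.1, 13.3 and 6.65 CPM in the mutant. For tcimb the log2 fold change was 1.78 (SE 0.57) in EOM, between 1.29 and 2.47 as single libraries were left out, and 3.43 (SE 0.35) in trunk. Its paralog tcima had 1 to 31 reads in every library, and its log2 differences of 0.99 (SE 0.81) in EOM and 0.99 (SE 0.86) in trunk did not pass the quasi-likelihood test of edgeR (adjusted p of 0.999 and 0.606).

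si:dkey-251i10.2 also varied between the WT EOM libraries, at 0.342, 0.0783 and 1.01 CPM, against 7.57, 4.13 and 1.73 CPM in mutant EOM. WT trunk held 11, 11 and 18 reads and mutant trunk 247, 286 and 287. The trunk groups were far apart and each was even, while WT EOM library 3 came within reach of mutant EOM library 3. The log2 fold change was 4.88 (SE 0.41) in trunk and 3.22 (SE 0.68) in EOM, and the EOM value was 4.42 without WT EOM library 3.

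**Figure D1:**
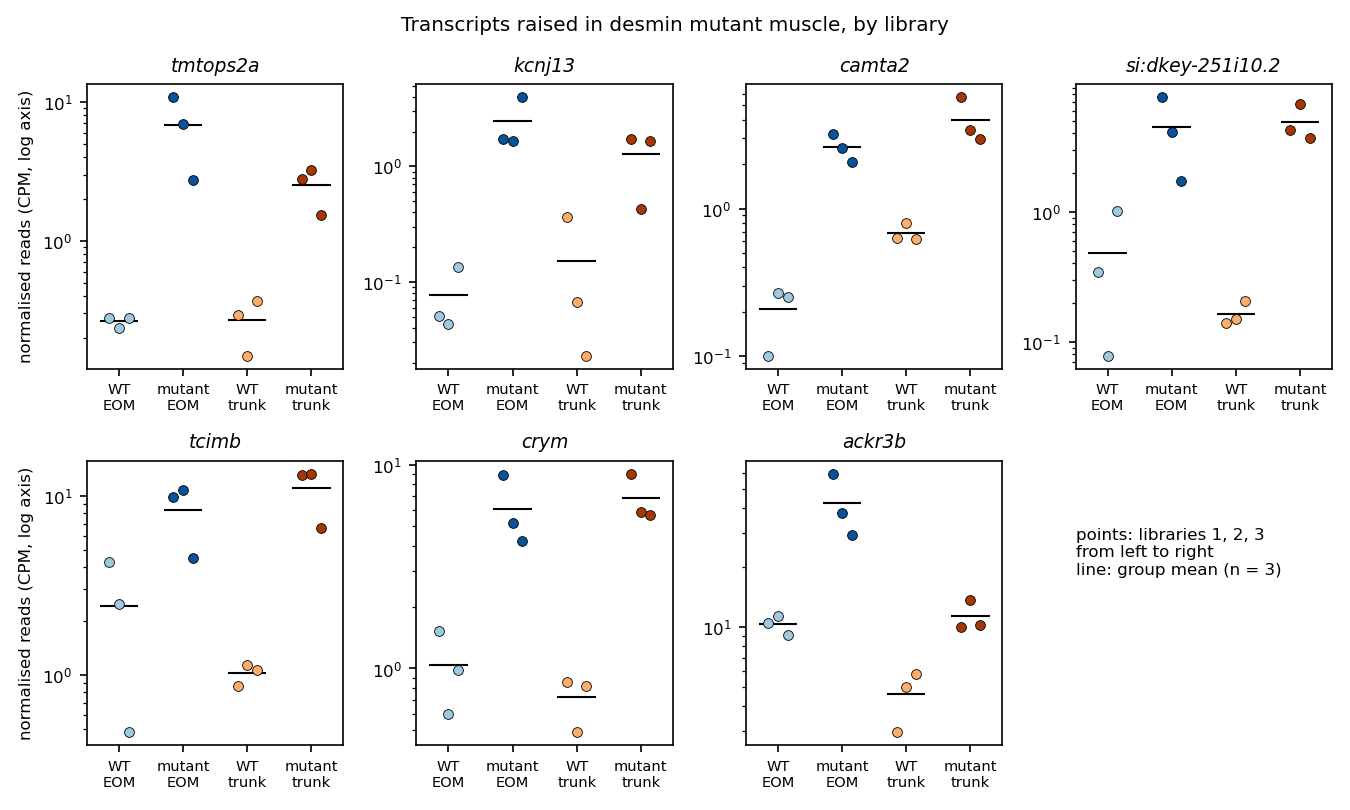
Normalised reads (CPM after TMM, log axis) of the 7 transcripts in each of the 12 libraries, with 1 panel per transcript, points for libraries 1, 2 and 3 of each tissue and genotype from left to right, and a line at the group mean (n = 3). In every panel the mutant points of a tissue lie above its WT points, narrowly so for tcimb in EOM (4.52 against 4.27 CPM) and kcnj13 in trunk (0.428 against 0.366 CPM).

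Read across the set, library 3 of the mutant EOM group was the lowest of its group in CPM for all transcripts but kcnj13, for which it was the highest at 3.95 CPM. That library had the largest scaling factor, 1.804, and its place depends in part on the scaling. In raw reads it had the most of its group for camta2 (289) and ackr3b (4047) as well. It had the fewest for tmtops2a (379), si:dkey-251i10.2 (240) and tcimb (628). All mutant libraries were above all WT libraries of the same tissue for 7 of 7 transcripts in EOM and 7 of 7 in trunk, where 4.04% and 12.6% of all genes tested did the same; since the transcripts were picked for this difference, nothing is read from those counts. Scaled by library totals alone the counts were 7 in EOM and 6 in trunk, where kcnj13 overlapped. Of the 7, 6 were past an adjusted p of 0.05 upward in EOM (0.122% of 18804 genes tested) and 1 in trunk (0.0111% of 18041 genes tested), again a description of how they were chosen. Ranked by log2 fold change among all genes tested, the set held places 6 (kcnj13) to 173 (tcimb) in EOM and 12 (si:dkey-251i10.2) to 689 (ackr3b) in trunk.

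**Figure D2:**
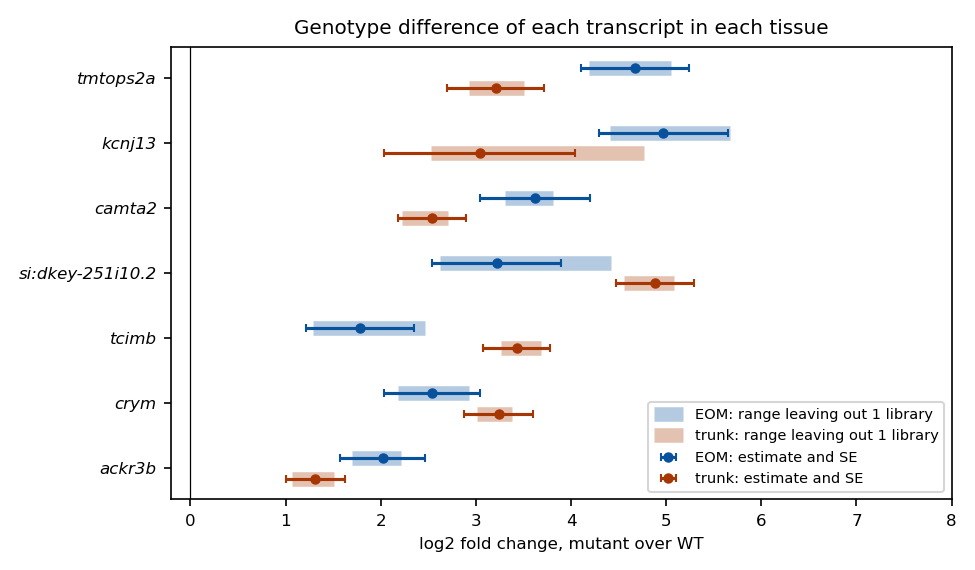
Log2 fold change of mutant over WT for each transcript in EOM and in trunk, with points for the estimate, whiskers for its SE and shaded bars for the range when 1 library is left out. The widest bars belong to kcnj13 in trunk (2.53 to 4.77) and si:dkey-251i10.2 in EOM (2.62 to 4.42).

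The genotype effects in trunk and EOM were set against each other as a difference, trunk minus EOM, again without a test because it is built from the contrasts that chose the set. The difference was above 0 for si:dkey-251i10.2 (1.66, SE 0.99), tcimb (1.63, SE 0.81) and crym (0.69, SE 0.61), and below 0 for kcnj13 (-1.90, SE 1.16), tmtops2a (-1.47, SE 0.72), camta2 (-1.08, SE 0.62) and ackr3b (-0.72, SE 0.48). For kcnj13 it shrank to -0.16 without WT trunk library 1, and for si:dkey-251i10.2 to 0.45 without WT EOM library 3. All 7 thus had higher reads in the mutant in both tissues, with a larger estimate in trunk for 3 and in EOM for 4.

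Where these transcripts stood in healthy muscle was read by comparing WT trunk with WT EOM. This contrast did not choose them, but its reads are the WT side of those that did. Its p-values are therefore given as a description. Of the 6 that passed the expression filter (kcnj13 did not), 2 differed, against 27.0% of all 18981 genes tested. Nothing is read from that count. ackr3b was lower in WT trunk than in WT EOM, with a log2 difference of -1.15 (SE 0.27, edgeR adjusted p = 0.0128, lower in 3 of 3 libraries). camta2 was higher in WT trunk, with a log2 difference of 1.71 (SE 0.46, edgeR adjusted p = 0.022, higher in 3 of 3 libraries). The camta2 call was lost with scaling by library totals (1.23, adjusted p = 0.158) and without WT trunk library 2 (1.58, adjusted p = 0.0926) or 3 (1.77, adjusted p = 0.054).

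For the other transcripts the WT tissues were not separated by the test. si:dkey-251i10.2 had a log2 difference of -1.49 (SE 0.78, adjusted p = 0.185), which passed at -2.04 (adjusted p = 0.0482) without WT EOM library 2. With another single library left out it shrank to as little as -0.32. tcimb had -1.22 (SE 0.61, adjusted p = 0.165), which passed at -1.73 (adjusted p = 0.00212) without WT EOM library 3. It too shrank with another library left out, to as little as -0.54. crym had -0.50 (SE 0.41, adjusted p = 0.393). tmtops2a had 0.05 (SE 0.49, adjusted p = 0.952), with WT EOM and WT trunk reads overlapping. For ackr3b the tissue difference passed under each setting run, which remains a description because its WT reads entered the choice. The EOM excess of its WT libraries was also present in the mutants, whose EOM libraries all exceeded their trunk libraries.

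Reads on the strand opposite to a gene were not used in the choice. Their share of the stranded reads is not free of it, since the share falls as the chosen sense reads rise. At camta2 opposite reads made up 73.4% of the stranded reads in WT EOM (185 opposite and 67 sense reads). In WT trunk they made up 70.6% (392 and 163). The mutants had 32.0% in EOM (316 and 670) and 18.0% in trunk (153 and 699). In total, the opposite reads of camta2 were thus more in mutant than WT EOM and fewer in mutant than WT trunk. By library the EOM groups overlapped, with 28, 78 and 79 opposite reads in WT and 34, 80 and 202 in the mutant. The trunk groups did not, with 118, 118 and 156 in WT and 64, 8 and 81 in the mutant. At tmtops2a opposite reads were 40.7% in WT EOM (55 reads) and 20.5% in WT trunk (17 reads). In the mutants they were 1.77% (28 reads) and 2.11% (9 reads). At kcnj13 they were 14.3% in WT EOM, 4 reads, and at most 1.03% in the other groups. At the other 4 transcripts they were at most 1.64% in any group. The gene listed next after camta2 is kif1cb, which encodes a kinesin motor protein and was looked at after its values were seen. Reads opposite to kif1cb numbered 29, 14 and 8 in WT EOM, 51 in all, against 311 in the 3 mutant EOM libraries, where the lowest had 97. In trunk they numbered 8, 15 and 11 in WT and 158, 98 and 98 in the mutant. These opposite-strand reads were thus higher in every mutant library of both tissues, as were the camta2 reads themselves. A read opposite to kif1cb that lies in an overlap with camta2 is also a camta2 sense read. The rise may therefore be in part the chosen camta2 reads counted again, and it is no separate readout. Reads on the strand of kif1cb itself did not pass the test between genotypes (in EOM a log2 difference of 0.66 with SE 0.49 and an edgeR adjusted p of 0.999, in trunk -0.85 with SE 0.64 and 0.564).

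Counting without regard to strand drops a read that falls on overlapping genes, and it adds reads of the opposite strand where there is no overlap. The difference between stranded and unstranded counts is therefore reads lost in overlaps less opposite-strand reads gained outside them, and a net loss is the least number of sense reads that lay in an overlap. In WT muscle the camta2 difference was close to 0, which a loss and a gain can also give. The 67 sense reads of WT EOM became 69 unstranded reads, and the 163 of WT trunk became 162. In the mutants 670 sense reads in EOM became 453, a net loss of 32.4%, and 699 in trunk became 435, a net loss of 37.8%. The net loss occurred in each mutant library, from 217, 164 and 289 reads to 139, 115 and 199 in EOM and from 329, 143 and 227 to 200, 85 and 150 in trunk. kif1cb showed a net loss in WT too, of 183 sense reads in WT EOM and 394 in WT trunk. The opposite-strand reads at camta2 there numbered 185 and 392. In the mutants kif1cb had a net loss of 315 reads in EOM and 148 in trunk, beside 316 and 153 opposite-strand reads at camta2. The counts do not place single reads within the gene, so where WT reads fell was not tested. With unstranded counts the log2 fold change of camta2 was 3.01 in EOM and 1.86 in trunk.

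**Figure D3:**
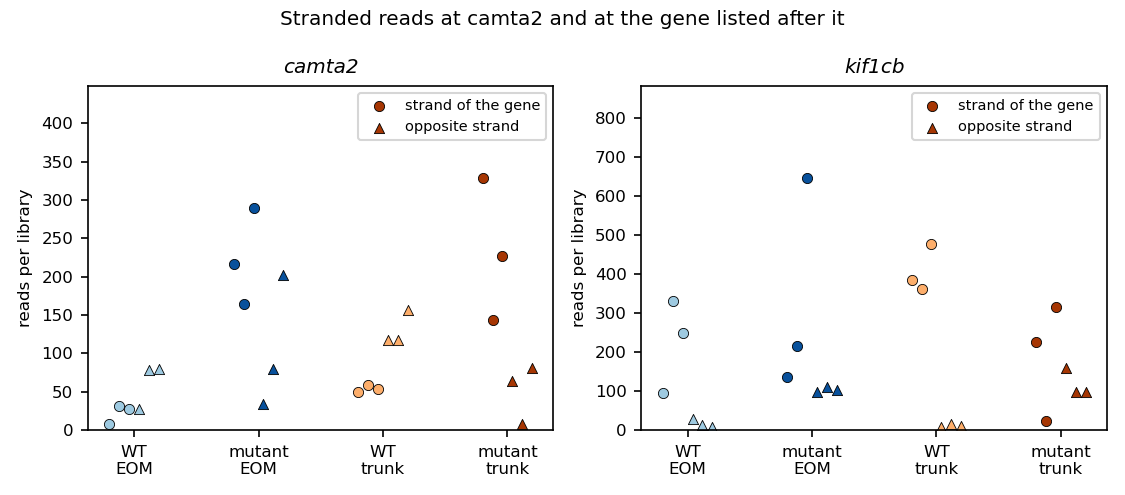
Reads per library on the strand of the gene (circles) and on the opposite strand (triangles) at camta2 and at kif1cb, the next gene in the annotation, with 3 libraries per group. Opposite-strand reads at kif1cb are 8 to 29 in the WT libraries and 97 to 158 in the mutant libraries.

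The net loss without strand was 14.8% of all kcnj13 sense reads and 6.98% of those of tmtops2a, and each of these genes lies beside an unnamed annotated gene with 165 and 246 opposite-strand reads over the 12 libraries. For tmtops2a a net loss was again seen in the mutants (9.64% in EOM and 11.0% in trunk), while WT EOM gained, from 80 sense reads to 128, and WT trunk held 66 by both counts. For kcnj13 the net loss was 8.33% and 25% in WT EOM and WT trunk, on 24 and 36 reads, and 13.9% and 17.1% in the mutants. The counts of si:dkey-251i10.2, tcimb, crym and ackr3b changed by at most 0.816% of a group's sense reads.

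Position was the other property the choice did not use. In the gene order of the RefSeq assembly GRCz12tu, tmtops2a lies 17 protein-coding genes and ackr3b 22 from desmb, on the same chromosome, and fhl2b, the gene named in the series title and a member of the LIM-domain FHL family, lies 12 from it. The remaining 5 lie on 5 other chromosomes, none of them that of desma. To show whether the stretch as a whole was raised, the genes between desmb and ackr3b were read from the same fits. Of 20 such genes that are not in the set, 16 were tested in each tissue. edgeR's test passed 0 in either tissue, where 0.303% of all genes passed in EOM and 0.0333% in trunk. In each tissue 2 had an unadjusted p below 0.05, as did 5.37% of all genes in EOM and 13.1% in trunk. DESeq2 called 0 in EOM and 1 in trunk, against 0.665% and 3.4% of all genes. With the replicate number as a block, edgeR called 2 in EOM, against 3.1% of all genes, and 0 in trunk. The log2 differences of these 16 genes ran from -2.27 to 1.91 in EOM, with 7 of 16 above 0 and a median of -0.26. In trunk they ran from -2.65 to 1.13, with 5 of 16 above 0 and a median of -0.12.

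Between tmtops2a and ackr3b lie, among other genes, a gene of glycan synthesis and one of pigment transport. st6gal2b, a sialyltransferase gene 1 step after tmtops2a, went from 0.375 ± 0.231 CPM in WT EOM to 1.42 ± 0.218 CPM in mutant EOM (SD, n = 3), a log2 difference of 1.91 (SE 0.59, adjusted p = 0.365). mlpha, the melanophilin gene whose product carries pigment granules, was lower in mutant trunk at 0.361 ± 0.0662 CPM against 2.28 ± 0.276 CPM in WT (log2 difference -2.65, SE 0.35, adjusted p = 0.0626). fhl2b had a log2 difference of 1.06 (SE 0.48, adjusted p = 0.837) in EOM and 0.41 (SE 0.27) in trunk. Same-numbered EOM libraries deviated together across genotypes, though the labels state no pairing. With the number as a block in edgeR, fhl2b (1.07, adjusted p = 0.0404) and st6gal2b (2.04, adjusted p = 0.007) passed in EOM.

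**Figure D4:**
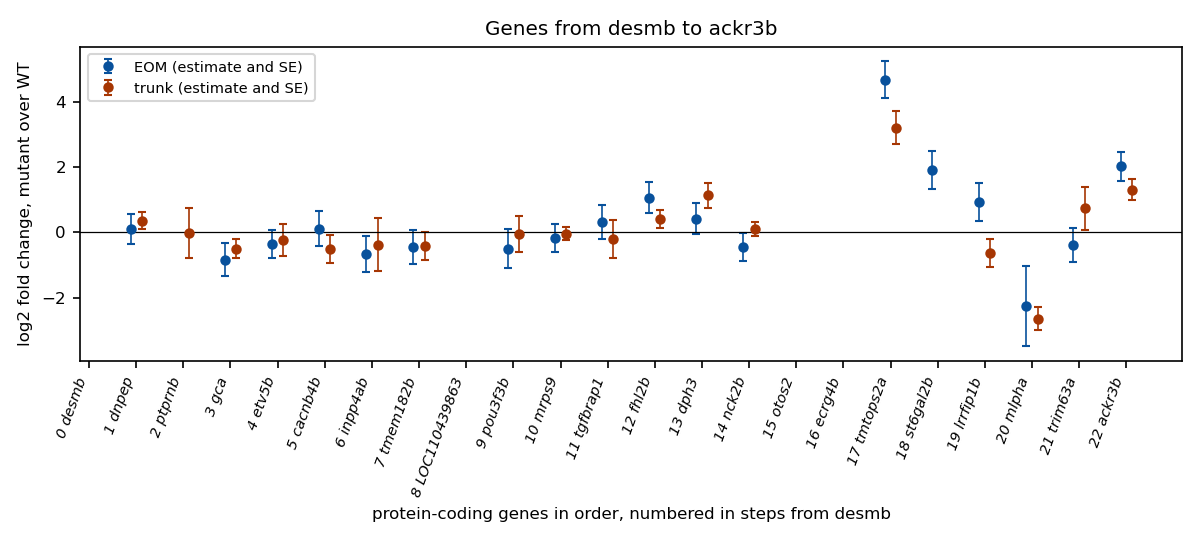
Log2 fold change of mutant over WT with its SE, in EOM and trunk, for the protein-coding genes in order from desmb (step 0) to ackr3b (step 22), with no point where a gene was not tested. tmtops2a at step 17 (4.67 in EOM, 3.21 in trunk) stands above the tested genes between desmb and ackr3b, which range from -2.65 to 1.91, while ackr3b itself is at 2.02 in EOM and 1.31 in trunk.

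On each side of the 7 transcripts, the first 5 RefSeq protein-coding genes that could be matched by name to the counted genes were taken, 64 further genes in all. Unmatched genes were passed over, so those taken lie up to 11 steps away, and the first after camta2 and after ackr3b lie 6 and 7 steps away. Of these, 51 were tested in EOM and 52 in trunk. edgeR called 0 in each tissue. At an unadjusted p below 0.05 it had 7 of 51 in EOM, where 5.37% of all genes were, and 11 of 52 in trunk, where 13.1% were. DESeq2 called 1 in EOM, higher in the mutant, and 5 in trunk, 4 higher and 1 lower, against 0.665% and 3.4% of all genes. Their median log2 difference was 0.35 in EOM, where that of all genes was 0.03, and 0.13 in trunk, where that of all genes was -0.03. With the replicate block, 4 neighbours passed upward and 1 downward in EOM, where 1.08% and 2.02% of all genes did. The 4 were st8sia7.1 (log2 difference 1.91, adjusted p = 0.00118) near camta2, si:ch211-281l24.3 (1.27, adjusted p = 0.0103) near kcnj13, and st6gal2b and fhl2b described above. The gene lower in the mutant was dmtn, a neighbour of tcimb that encodes the actin-bundling protein dematin (-1.33, adjusted p = 0.0106).

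None of the nearest matched genes passed without the block. si:dkey-251i10.1, which lies next to si:dkey-251i10.2, had a log2 difference of 0.81 in EOM (SE 0.61, adjusted p = 0.999) and 1.48 in trunk (SE 0.34, adjusted p = 0.200). eno3, the muscle enolase gene 2 steps before camta2, had 0.43 (SE 0.74, adjusted p = 0.999) and 1.46 (SE 0.43, adjusted p = 0.281). Beside crym, snu13b had 0.99 and 0.68 and rac1a had 0.91 and 0.40. Beside kcnj13, efhd1 had 0.44 and 0.40, and gal3st2, tested in EOM alone, had 0.47. For the other nearest matched genes that were tested the values were -0.35 and -0.71 (atp1b2a), 1.18 and 0.24 (zbtb20), 0.17 and -0.42 (ppp3ccb) and -0.38 and 0.73 (trim63a), none with an adjusted p below 0.05. ecrg4b, zmat4b and gbx2 had too few reads to be tested.

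The pathways around the transcripts were read from 6 lists with 141 genes outside the set. Of these genes 94 were tested in EOM and 84 in trunk, and edgeR called 0 in both. At an unadjusted p below 0.05 there were 9 in EOM and 13 in trunk, against the 5.37% and 13.1% of all genes given above. DESeq2 called 2 in EOM (kcnj12b and opn9) and 4 in trunk (among them cxcl12b, a cxcr4 gene and opn6a), against the 0.665% and 3.4% of all genes, and the replicate block 4 in EOM. The edgeR fits without the block thus called the pathway genes in neither tissue.

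The chemokine list, around ackr3b, came closest in trunk. cxcl12b, a ligand of the receptor, went from 25.9 ± 2.49 to 58.8 ± 16.7 CPM in trunk (log2 difference 1.18, SE 0.24, adjusted p = 0.165) and from 9.06 ± 1.33 to 21.0 ± 8.19 CPM in EOM (1.21, SE 0.44, adjusted p = 0.588; 1.14, adjusted p = 0.0262 with the block). Cxcr4, the signalling receptor for the same ligand, has 2 genes here. The more abundant one had log2 differences of 0.88 in EOM (SE 0.43, adjusted p = 0.924) and 0.71 in trunk (SE 0.19, adjusted p = 0.254). The other cxcr4 gene had -0.2 in EOM (SE 0.57) and 0.16 in trunk (SE 0.51). A further Cxcl12 gene had 0.14 and 0.73. In all, 8 of 11 genes tested in EOM and 8 of 10 in trunk were above 0, with medians of 0.14 and 0.22.

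In the potassium channel list the smallest p belonged to a gene lower in the mutant. kcnj12b, a strong inward rectifier of the Kir2 family, went from 5.54 ± 0.720 to 1.39 ± 0.435 CPM in EOM (log2 difference -1.98, SE 0.47, adjusted p = 0.0697; -2.02, adjusted p = 1.87e-05 with the block) and from 14.9 ± 2.98 to 4.60 ± 3.46 CPM in trunk (-1.70, SE 0.60, adjusted p = 0.329). The list's median was 0.03 over 11 genes tested in EOM and -0.94 over 7 in trunk. KCNJ15 had -1.54 in EOM, and kcnj19a had -0.93 in trunk, with adjusted p-values of 0.656 and 0.378.

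Among the other opsins, opn9 went from 0.530 ± 0.227 to 0.0509 ± 0.0442 CPM in EOM (log2 difference -3.27, SE 0.95, adjusted p = 0.262; -3.42, adjusted p = 0.0186 with the block). opn6a went from 2.81 ± 0.347 to 0.856 ± 0.408 CPM in trunk (-1.72, SE 0.45, adjusted p = 0.244). rgrb, of the RGR opsin group, had the opposite sign in trunk (1.38, SE 0.46, adjusted p = 0.320), and opn6b had -1.20 in EOM (adjusted p = 0.731). The list's median was 0.01 over 9 genes in EOM and -0.78 over 8 in trunk.

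Of the circuit around camta2, with class IIa histone deacetylases, MEF2 factors and calmodulin kinases, 23 genes were tested in EOM and 21 in trunk, with medians of 0.15 and 0.01. CAMK2A had the smallest p in EOM (log2 difference 1.28, SE 0.58, adjusted p = 0.844) and a CAMTA1 gene in trunk (-0.97, SE 0.34, adjusted p = 0.327). Of the genes of thyroid hormone action around crym, 22 were tested in each tissue. Their medians were 0.00 in EOM, the value being below 0 before rounding, and -0.07 in trunk. thrsp, a thyroid hormone responsive gene of fat synthesis, had -1.34 in EOM (SE 0.62, adjusted p = 0.886; -1.52, adjusted p = 0.0379 with the block), and rxrga, a retinoid X receptor gene, had 0.68 in trunk (SE 0.23, adjusted p = 0.326). Of the Wnt and beta-catenin genes around tcimb, 18 and 16 were tested, with medians of 0.25 and -0.01. TCF7 had 1.37 in EOM (SE 0.65, adjusted p = 0.916), a MYC gene had 1.02 in trunk (SE 0.32, adjusted p = 0.302) and notum1b, an inhibitor of Wnt proteins, had -1.06 in trunk (SE 0.37, adjusted p = 0.329).

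Markers of other cells were summed per library to show what else moved with genotype. Leukocyte markers, 19 genes, summed to 170.2, 121.6 and 101.5 CPM in WT EOM and 275.2, 328.5 and 176.5 in mutant EOM. In trunk they summed to 93.9, 83.3 and 74.2 CPM in WT and 216.9, 184.4 and 137.2 in the mutant. Like the 7 transcripts, these sums were higher in every mutant library than in every WT library of the same tissue, and 14 of 16 tested markers in EOM and 12 of 15 in trunk were above 0. A single one was called, grna.2, a granulin gene (log2 difference 4.26, SE 0.77, edgeR adjusted p = 0.00689 in EOM). A single marker, lyz, was at 0 throughout a group, mutant EOM. The part of leukocytes in the higher reads of the 7 transcripts was not tested.

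Pigment epithelium and melanophore markers, of interest for kcnj13, summed to 9.45 to 15.9 CPM in WT EOM and 10.6 to 17.7 in mutant EOM, overlapping, and to 15.8 to 17.4 against 17.8 to 24.1 in trunk, without overlap. Markers of iridophores and xanthophores summed to 84.1 to 187.0 against 59.0 to 132.0 CPM in EOM and to 40.0 to 43.5 against 47.8 to 51.6 in trunk. The largest part in EOM was an ALX4 gene, at 89.0 CPM in WT and 57.1 in the mutant by group mean. Of the 10 tested markers in EOM, 5 were above 0. Photoreceptor markers, of interest for the opsin, summed to 45.5 to 75.7 CPM in WT EOM and 40.2 to 90.7 in mutant EOM, and to 2.74 to 3.17 against 2.39 to 5.06 in trunk, so both genotypes overlapped in both tissues. Lens markers stood at 2.00 to 5.11 against 2.19 to 2.71 CPM in EOM and at 3.14 to 5.07 against 0.808 to 5.89 in trunk, with 1 to 8 of 15 genes at 0 in a group. Endothelium and pericyte markers summed in EOM to 523.0 to 569.0 CPM in WT and 415.0 to 501.0 in the mutant, lower in every mutant library. Fibre marker sums were higher in every mutant trunk library, at 231000, 232000 and 118000 CPM against 118000, 99500 and 115000 in WT. The lowest mutant and highest WT library differ only before rounding. Of the 23 fibre markers tested in trunk, 11 were above 0, with a median log2 difference of -0.07 and 0 called. The most abundant, ckmb, went from 34500 CPM in WT trunk to 83300 in mutant trunk by group mean. Sums of fibre, neuron and glia, epidermal, fibroblast and tendon, and erythrocyte markers overlapped between genotypes in EOM. Of the tested EOM markers, 1 of 8 erythrocyte and 2 of 14 epidermal ones were above 0, with medians of -1.03 and -0.50 and 0 called. Above 0 were also 8 of 23 fibre, 9 of 19 neuron and glia, and 8 of 15 fibroblast and tendon markers. In trunk, epidermal sums (195.0 to 223.0 against 211.0 to 482.0), neuron and glia (376.0 to 639.0 against 326.0 to 604.0), fibroblast and tendon (1100.0 to 2580.0 against 1580.0 to 2580.0), endothelial (738.0 to 925.0 against 731.0 to 762.0) and erythrocyte (399.0 to 702.0 against 369.0 to 906.0) sums overlapped as well. Gene by gene, 5 of 19 neuron and glia markers tested in trunk were above 0, with a median log2 difference of -1.26 and 0 called. The most abundant of them, mbpa, was at 197.0 CPM in WT trunk and 202.0 in mutant trunk by group mean. Above 0 in trunk were also 1 of 8 erythrocyte, 5 of 16 endothelial, 8 of 17 fibroblast and tendon, and 6 of 12 epidermal markers. The part of each of these cell types in the results was not tested.

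Genes whose pattern over the 12 libraries was most like that of each transcript were ranked by the root mean square difference of centred log2 CPM among 18964 genes, a description over libraries that share genotype and tissue. The closest gene to ackr3b was CCDC92 (0.37), followed by grinab (0.39), both also higher in EOM than in trunk by group mean. zgc:171242 was closest to crym (0.54), ahead of ifi27.3 (0.60). An NPC2 gene was closest to tcimb (0.65), si:dkeyp-87d1.1 to camta2 (0.66), and si:ch211-66i8.3 to si:dkey-251i10.2 (0.81). zgc:172253 was closest to both tmtops2a (0.74) and kcnj13 (0.95), with 0 CPM in both WT groups, 0.580 CPM in mutant EOM and 0.351 in mutant trunk. Within the set, crym was the third closest gene to tmtops2a (0.81) and to si:dkey-251i10.2 (0.93). The distance between kcnj13 and ackr3b was 1.73. At that distance kcnj13 was rank 14110 for ackr3b, while ackr3b was rank 167 for kcnj13, so a rank depends on the gene it is counted from.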

How the data were processed

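Total RNA from dissected muscle (400 ng per library) was made into poly-A selected stranded libraries, per the labels' protocols. The deposited values are raw counts of reads for each gene, a file per library, with 32520 genes, 4 summary lines and columns for unstranded and for each strand. STAR, DESeq2 and the build GRCz11 are named in the submitters' processing notes; versions and annotation are not given in the sources used here. Sense counts were used, in the stranded column that held 96.43 to 97.26% of stranded reads. The summary lines, 21.1 to 34.4% of reads, stayed out of library sizes and tests.

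Genotypes within a tissue, tissues within WT and their interaction were fitted with edgeR 4.0.16 in R 4.3.3 (quasi-likelihood test, robust, TMM, minimum count 10 and minimum total 15, Benjamini-Hochberg over all genes, threshold 0.05), and the fit was tested on simulated data. Each SE was the size of the log2 fold change divided by the root of its F statistic. edgeR moderates the spread of each gene toward that of all genes, so an SE or p-value is not from that gene's libraries alone. DESeq2 1.42.0, other scalings, no filter, unstranded counts, a replicate block, a fit of 12 libraries and leaving out each library were the alternatives. Same-numbered libraries of the genotypes deviated together in EOM (r = 0.288, 0.246 and 0.552 over genes), not in trunk (-0.095, 0.057 and -0.009). Different-numbered EOM pairs ran from -0.449 to 0.173, and deviations from a mean of 3 libraries are tied to each other. The labels state no pairing, so the block rests on these correlations. With the block little of a gene's own spread is left to measure, so the EOM p-values with the block rest mainly on spread pooled over genes. Library 3 had the largest scaling factor in both EOM groups (1.681 in WT and 1.804 in the mutant). Library 3 of mutant EOM also deviated with library 3 of mutant trunk (r = 0.402). A different-numbered pair, mutant EOM library 1 and mutant trunk library 2, had r = 0.284. What same-numbered libraries share was not tested.

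Symbols come from a name table (29201 genes matched). Some are in human capitals, and a symbol can cover several paralogs. ackr3b was taken as the ACKR3 row whose adjacent rows carry the names RefSeq (GRCz12tu) puts beside it. Neighbours were matched by symbol within 30 file rows, the first 5 matched per side; kif1cb is outside that rule. The lists had 76.7 to 100.0% of their symbols found, and the potassium channel and muscle fibre lists fell below 80%. Named were the 7 transcripts, the desmin genes, the nearest matched neighbours, those edgeR called with or without the block, and those ending the trunk range. Up to 3 genes per list and tissue with the smallest p were named too. Neighbours that DESeq2 called are given as counts. 1 listed gene is not reported here. The members and lists were chosen with earlier results of these data known. No sequence or coordinate was used.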

Additional observations from a re-analysis of the deposited data

How the results depend on the processing

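The 7 log2 fold changes stayed above 0 in both tissues under all alternatives run. The transcripts were picked for that difference, so nothing is read from its sign. Of 91 alternatives each, 3 in EOM and 4 in trunk moved a value by more than the spread between replicates: unstranded counts (tmtops2a 3.83 and camta2 3.01 in EOM, camta2 1.86 in trunk), library totals (camta2 2.02 and ackr3b 0.80 in trunk) and the omissions given above. In WT, the tissue difference of tmtops2a turned below 0 with library totals (-0.37), unstranded counts (-0.64), the block (-0.03), and without WT EOM library 2 (-0.05) or WT trunk library 3 (-0.25, the other omissions reaching 0.33). Of the 7 transcripts, 2 passed there, 1 with library totals and 1 to 3 with a library left out.

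Counts of called genes moved more. In EOM 57 genes passed, and 125 with DESeq2, 2 with library totals, 120 without a filter, 582 with the replicate block, 34 in the fit of 12 libraries, and 0 (without mutant EOM library 1; 1259 unadjusted) to 78 with a library left out. In trunk 6 passed, and 614 with DESeq2, 3 with library totals, 52 without a filter, 14 unstranded, 0 with the block (1538 unadjusted), 52 in the fit of 12 libraries, and 0 to 251 (without mutant trunk library 2) with a library left out. In the tissue comparison 5116 passed (2624 higher and 2492 lower in trunk; 887 and 3409 with library totals), 1968 in the fit of 12 libraries, and 3103 to 7732 with a library left out. In the interaction 2 passed, 13 with DESeq2, 0 with library totals (530 unadjusted), 1 unstranded, and 1 to 3 with a library left out. Of the neighbours 0 passed, in EOM 1 with DESeq2 and 5 with the block, in trunk 5 with DESeq2, 1 without a filter and 0 to 2 with a library left out. The causes were not tested. Library totals shifted the median log2 difference of all genes from -0.026 to -0.498 in trunk.

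In trunk same-numbered libraries of the genotypes did not deviate together, and the block there shares only a number. Depth limits kcnj13 most, with 2 to 29 reads per WT library.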
